A study of Mus musculus with 4 samples.

Results

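The melatonin receptor family of the mouse has 3 genes, Gpr50, Mtnr1a and Mtnr1b, and its members were taken here by these symbols. Gpr50 was chosen by its log2 level, as the gene that stood highest on the high-fat over the low-fat wild type array, so that difference is a description and supports nothing. All 3 genes had a probe set, out of 18820 genes measured, and each was read by 1 probe set. Gpr50 alone passed the filter on low signal, a mean log2 intensity of at least 5.45 over the 4 arrays, and it passed through the 2 arrays on which it was high.

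Mtnr1a and Mtnr1b encode the melatonin receptors MT1 and MT2, which couple mainly to inhibitory G proteins and lower cyclic AMP when melatonin binds. Gpr50 encodes an orphan receptor of the same family that does not bind melatonin, has a long tail inside the cell and can pair with MT1. In mice Gpr50 is known from tanycytes of the hypothalamus and from the pituitary, and mice without it show altered energy balance, including their response to high-fat feeding. Mice of the C57BL/6 strains make little melatonin in the pineal gland.

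Whole-transcript arrays measured RNA of epididymal adipose tissue, the fat pad beside the epididymis, from C57BL/6 mice. The groups were 2 arrays of CD1d-/- (knockout) mice fed low fat, called KO1 and KO2, 1 array of wild type mice fed high fat, called WT-HF, and 1 array of wild type mice fed low fat, called WT-LF. CD1d presents lipids to natural killer T cells, and the null allele was on C57BL/6J after 10 to 12 generations of crossing. The diets, with 45 or 10 kcal% fat, were given for 18 to 19 weeks to mice that had eaten chow until an age of 10 to 11 weeks. Each array held RNA pooled from 4 to 6 mice, so no value has a spread between animals, and whether KO1 and KO2 came from different pools is not stated in the labels. Knockout mice fed high fat were not analysed here.

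The targeted gene went with the labels. Cd1d1 had a log2 intensity of 3.98 on KO2 and 3.74 on KO1, against 11.80 on both WT-HF and WT-LF. Adipoq, the gene of the fat cell hormone adiponectin, lay between 13.03 and 13.19 on all 4 arrays, and the fat cell genes Fabp4 and Cidec lay between 13.16 and 13.33. Of the 7 fat cell markers listed, 1 was at least 1.5-fold higher both on KO2 over KO1 and on WT-HF over WT-LF, against 6.02% of all tested genes. This was the leptin gene Lep, at 0.97 and 0.99 on the log2 scale. The median intensity over 35556 probe sets was between 51.1 and 52.2 on the 4 arrays. The KO arrays stood apart from each other, with 2177 of 11292 tested genes at least 1.5-fold apart, and every result on them is given for each array.

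Gpr50 lies on the X chromosome, Mtnr1a on chromosome 8 and Mtnr1b on chromosome 9 (RefSeq, GRCm38.p6). The 250 bases upstream of each annotated start are shown because Gpr50 was high or low on whole arrays while its relatives were low on all of them. They come from RefSeq in the same build, run 5′ to 3′ on the strand of the gene, and carry matches to searched motifs in capitals.
Gpr50 (chrX:71663417-71663666, plus strand): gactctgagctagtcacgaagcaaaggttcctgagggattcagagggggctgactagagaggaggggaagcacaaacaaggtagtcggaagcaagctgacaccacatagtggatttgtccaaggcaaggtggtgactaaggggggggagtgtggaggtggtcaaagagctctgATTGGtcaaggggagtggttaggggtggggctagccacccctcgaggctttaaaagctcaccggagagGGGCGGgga
Mtnr1a (chr8:45068857-45069106, plus strand): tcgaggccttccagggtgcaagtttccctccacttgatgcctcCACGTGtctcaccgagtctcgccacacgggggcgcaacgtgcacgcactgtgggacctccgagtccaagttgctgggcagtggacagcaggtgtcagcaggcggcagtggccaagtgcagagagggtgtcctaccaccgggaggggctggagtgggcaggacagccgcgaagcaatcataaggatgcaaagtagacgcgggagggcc
Mtnr1b (chr9:15874557-15874806, minus strand): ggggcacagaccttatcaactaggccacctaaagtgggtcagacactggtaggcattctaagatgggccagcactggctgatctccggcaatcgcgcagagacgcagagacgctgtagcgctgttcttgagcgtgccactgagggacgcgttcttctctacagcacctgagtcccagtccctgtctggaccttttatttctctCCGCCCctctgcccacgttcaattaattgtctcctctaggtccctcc

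Both strands were searched for 8 motifs. These were the GC box (GGGCGG), the CCAAT box (CCAAT), the TATA box (TATAAA), the cyclic AMP response element (TGACGTCA), the E-box (CACGTG), the AP-1 site (TGANTCA), the core bound by the macrophage factor PU.1 (GAGGAA) and the nuclear receptor half-site (AGGTCA). The Gpr50 window held 1 GC box, beginning 9 bases before the start, and 1 CCAAT box on the opposite strand, beginning 77 bases before it. The Mtnr1b window held 1 GC box on the opposite strand, and the Mtnr1a window held 1 E-box. No match overlapped another. Among 32851 upstream windows of the same length, 32.7% held the GC box, 33.8% the CCAAT box and 6.02% the E-box, so the Gpr50 matches are common ones. The GC content was 56.8% for Gpr50, 63.6% for Mtnr1a and 56.0% for Mtnr1b, against a median of 52.4% over all windows. A match describes letters and is not a binding site, and a motif without a match in these windows says nothing of its factor.

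Gpr50 was read by probe set 10600024 (Entrez gene 14765). Its intensity was 1067 on KO2 and 14.8 on KO1, against 1210 on WT-HF and 20.2 on WT-LF. On the log2 scale these levels were 10.06, 3.89, 10.24 and 4.33 in the same order of arrays. The gene was therefore high on 1 KO array and on WT-HF and low on the other 2, with nothing in between. From high to low the order was WT-HF, KO2, WT-LF and KO1. WT-HF and KO2 were 0.18 apart and WT-LF and KO1 0.44 apart, and no replicate spread is at hand to judge these gaps by, since the KO arrays lie on either side of the step.

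The high levels lay at percentile 93.3 of all gene levels on KO2 and 94.1 on WT-HF. The low levels lay at percentile 8.5 on KO1 and 21.2 on WT-LF. The 990 olfactory receptor genes, chosen after values were seen as genes that mostly stay silent in fat, served as a view of low signal. Their median log2 level was 4.24 on KO2 and 4.35 on KO1, against 3.95 on WT-HF and 3.99 on WT-LF. Low signal thus stood higher on the KO arrays. Among the olfactory receptor genes the low Gpr50 levels lay at percentile 24.7 on KO1 and 71.2 on WT-LF, and the high levels lay above all of them on both other arrays. The low levels are thus in the range of silent genes, and each fold change of Gpr50 against them is read as a lower bound.

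**Figure D1:**
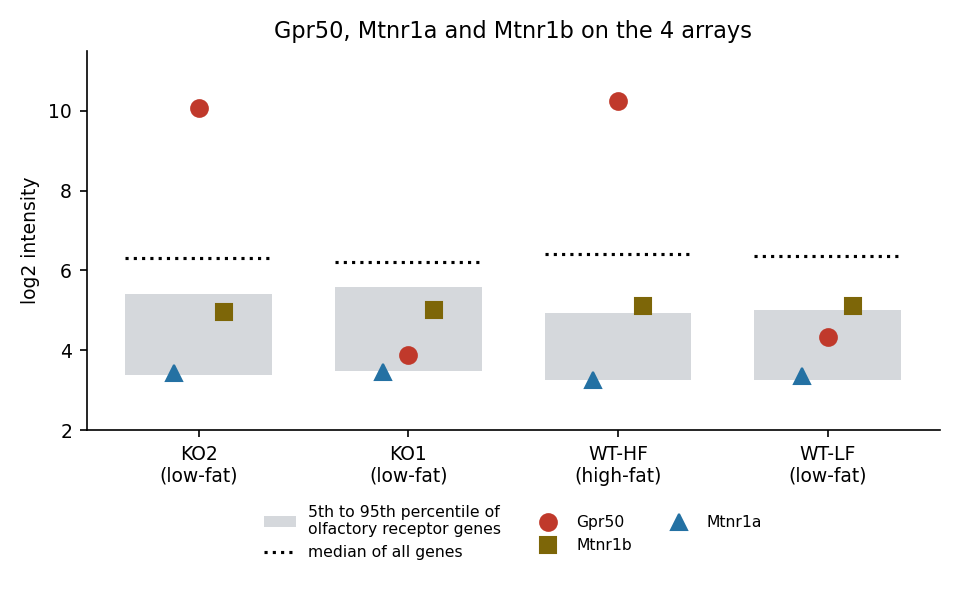
Log2 intensity of Gpr50 (circles), Mtnr1b (squares) and Mtnr1a (triangles) on the 4 arrays, with the 5th to 95th percentile of olfactory receptor genes in grey and the median of all genes dotted. Gpr50 was at 10.06 and 10.24 on KO2 and WT-HF and inside the grey range at 3.89 and 4.33 on KO1 and WT-LF.

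Mtnr1a, the gene of MT1, was read by probe set 10571560 (Entrez gene 17773) and was near the bottom of the range everywhere. Its log2 level was 3.44 on KO2 and 3.47 on KO1, against 3.27 on WT-HF and 3.37 on WT-LF. These levels lay between percentiles 1.5 and 2.5 of all genes, and between percentiles 4.8 and 9.2 of the olfactory receptor genes. The 4 values spanned 0.20.

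Mtnr1b, the gene of MT2, was read by probe set 10591087 (Entrez gene 244701). Its log2 level was 4.97 on KO2 and 5.02 on KO1, against 5.11 on WT-HF and 5.10 on WT-LF. These levels lay between percentiles 33.0 and 36.0 of all genes and spanned 0.14. Among olfactory receptor genes they lay at percentiles 85.3, 79.6, 96.8 and 96.0 in the same order of arrays, the upper part of that range. Probe sets differ in their brightness, so the level of one receptor gene is not set against that of another. Neither gene followed the steps of Gpr50.

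The only comparison with replicates asks how fat without CD1d differed from wild type fat on the low-fat diet. Gpr50 averaged 6.97 ± 4.36 on the KO arrays (SD, n = 2), against 4.33 on WT-LF. The difference was 2.64 with a standard error of 2.28 and a 95% interval from −3.02 to 8.30, and limma gave an adjusted p = 1 (unadjusted p = 0.293). The call rests on a mean of 2 unlike arrays, since KO2 was 5.73 higher than wild type and KO1 was 0.44 lower. The test passed 5 of the 11292 genes, 0.0443%, of which 0 were higher in KO, with 92 genes at an unadjusted p under 0.05. Of the 5, 3 were the epididymis markers Spint4, Spint5 and Lcn5, which were high on WT-LF and low on WT-HF as well as on the KO arrays. The targeted gene Cd1d1 was another. The interval of Gpr50 is wide, but WT-LF was already in the range of silent genes, so a large fall could not have been measured. Its lower side comes from the model, and the p does not show that KO and wild type fat are alike in Gpr50.

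The melatonin receptors lay below the filter and were tested only with all 18820 genes in the fit. Mtnr1a averaged 3.46 ± 0.03 on the KO arrays (SD, n = 2), against 3.37 on WT-LF. Its difference was 0.09 with a 95% interval from −0.52 to 0.69 (limma, adjusted p = 1). Mtnr1b averaged 5.0 ± 0.04 on the KO arrays (SD, n = 2), against 5.10 on WT-LF. Its difference was −0.10 with a 95% interval from −0.71 to 0.51 (limma, adjusted p = 1). With both genes at low signal, these intervals bound a measured intensity and not the number of receptors. The low signal itself, seen in the olfactory receptor genes, stood higher on the KO arrays than on WT-LF.

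Within the KO pair, Gpr50 had the largest upward difference of all tested genes. KO2 was 6.17 higher than KO1 on the log2 scale, 72.0-fold, which ranked 1 of 11292 genes from the top and 3 by size in either direction. The next in the upward direction were Adam7, a gene of the epididymis, at 5.04 and Atp6v0d2, a proton pump subunit of lipid-laden macrophages, at 4.94. Larger differences in the opposite direction were those of Pcp4, at −7.18, and Ptgs2, the inducible cyclooxygenase gene, at −6.27. The choice of Gpr50 did not use this pair of arrays, and with 1 array on each side there is no test. Mtnr1a and Mtnr1b differed by −0.04 and −0.05 between the same arrays.

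On the diet, for which Gpr50 was picked, its level was 10.24 on WT-HF and 4.33 on WT-LF, 5.91 higher or 60.1-fold. It ranked 1 of 11292 from the top and 9 by size, behind genes that were lower on WT-HF. The next gene, just outside the choice, was Atp6v0d2 with 10.64 on WT-HF and 6.28 on WT-LF, a difference of 4.36. Mtnr1a and Mtnr1b differed by −0.10 and 0.01.

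Against WT-HF, Gpr50 was lower by different amounts on the KO arrays. KO2 differed from it by −0.18 and KO1 by −6.35. These differences share WT-HF with the choice of Gpr50 and are given as values only.

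The KO pair and the wild type pair share no array, which allows the 2 differences to be set beside each other for all tested genes. Across the 11292 genes, which are not independent replicates, Pearson's r was 0.517 and Spearman's rho 0.703. At least 16-fold higher were 6 genes on KO2 over KO1 and 4 genes on WT-HF over WT-LF, and Gpr50 and Atp6v0d2 were in both sets. The place of Gpr50 in the set of WT-HF over WT-LF was fixed by its choice. At 4-fold the sets held 66 and 35 genes with 28 in common, which is 42.4% of the first and 80.0% of the second. These folds were chosen after the values were seen. Adam7, second in the KO pair, went the other way on the diet, with 3.60 on WT-HF and 9.35 on WT-LF.

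**Figure D2:**
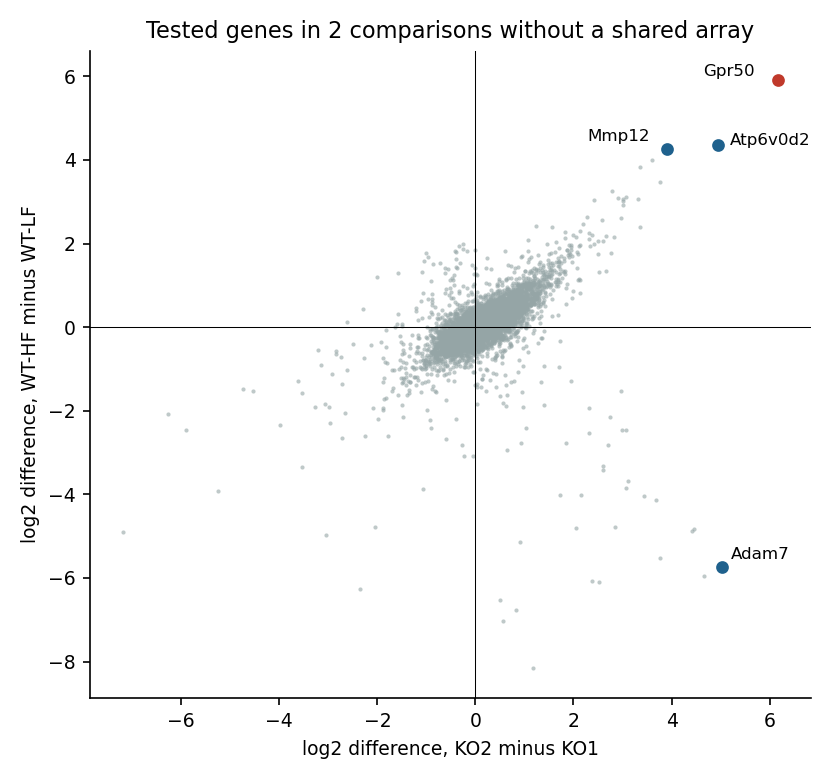
Each point is 1 of 11292 tested genes, with its log2 difference between KO2 and KO1 on the horizontal axis and between WT-HF and WT-LF on the vertical axis. Gpr50 stands alone at the upper right, at 6.17 and 5.91, beyond Atp6v0d2 at 4.94 and 4.36 and Mmp12 at 3.90 and 4.26. Its place at the top of the vertical axis was fixed by its choice.

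The genes whose profile was most like that of Gpr50 were found by range-scaled levels, where the lowest of the 4 arrays is 0 and the highest 1. Gpr50 had scaled levels of 0.971 on KO2 and 0 on KO1, against 1 on WT-HF and 0.070 on WT-LF. Likeness was the mean absolute difference from these, over 4 arrays and 172 genes that spanned at least 2 on the log2 scale. The median distance was 0.501, and the 8 nearest genes lay between 0.013 and 0.033. They were Fabp7, Tlr13, Adam8, Slc5a7, Igsf6, Nceh1, Trem2 and Ddah1.

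Fabp7, a fatty acid binding protein best known from brain, was the nearest. Its level was 7.88 on KO2 and 5.56 on KO1, against 7.88 on WT-HF and 5.78 on WT-LF. Slc5a7, the high-affinity choline transporter, had 10.05 on KO2 and 7.07 on KO1, against 9.85 on WT-HF and 7.23 on WT-LF. Both had the same high and low arrays as Gpr50, at a smaller range.

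Of the 8 genes, Trem2 is also on the marker list of lipid-associated macrophages. Tlr13, an endosomal receptor for bacterial RNA, had 8.98 on KO2 and 5.96 on KO1, against 9.25 on WT-HF and 6.33 on WT-LF. Trem2, the lipid-sensing receptor of macrophages, had 9.53 on KO2 and 6.52 on KO1, against 9.94 on WT-HF and 6.86 on WT-LF. Nceh1, a cholesterol ester hydrolase, was 4.40-fold higher on KO2 than on KO1 and 4.92-fold higher on WT-HF than on WT-LF. The metalloprotease gene Adam8 was 7.53-fold and 8.54-fold higher in these comparisons, Igsf6 4.40-fold and 3.90-fold, and Ddah1, which breaks down methylated arginines, 5.68-fold and 4.19-fold. Each of the 8 gave an adjusted p = 1 in limma for KO against WT-LF. Their choice by likeness to Gpr50 sets KO2 far above KO1, the only replicate pair, so the test could hardly pass any of them. Likeness over 4 arrays is weak evidence of any kind, and with profiles centred but not scaled only Trem2 stayed among the nearest 8. The others there were Atp6v0d2, Mmp12, Tm4sf19, Gpnmb, Rgs1, Trdn and Il7r. Of these, Atp6v0d2, Mmp12 and Gpnmb are on the same marker list as Trem2. After quantile normalization 6 of the 8 range-scaled neighbours stayed.

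**Figure D3:**
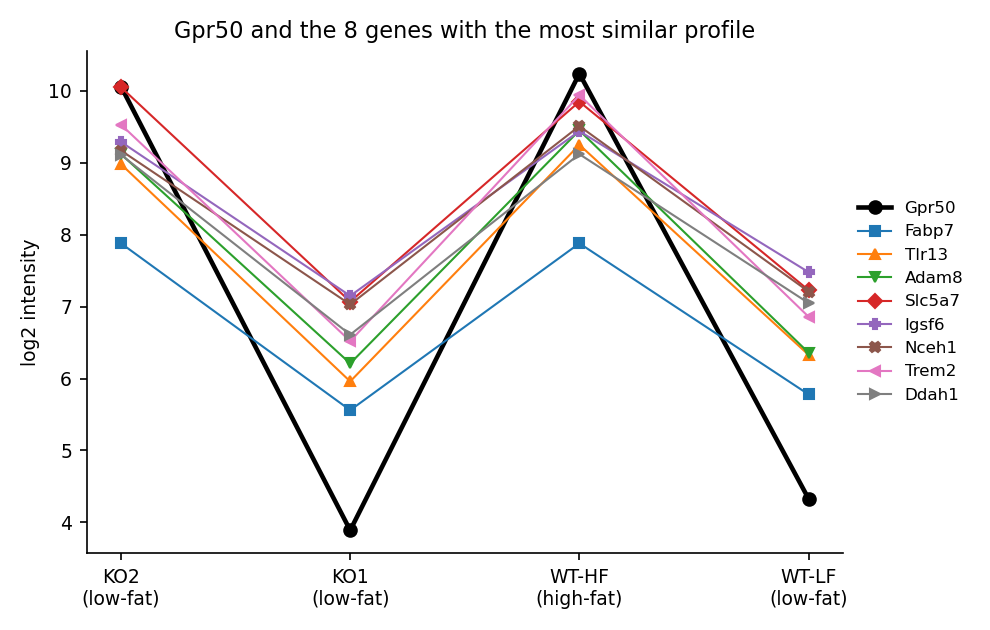
Log2 intensity of Gpr50 (black) and of the 8 genes with the nearest range-scaled profile on the 4 arrays. Each of the 9 lines is high on KO2 and WT-HF and low on the other arrays, and Gpr50 spans 6.35 while Trem2 spans between 6.52 and 9.94.

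Genes that act around the receptors were collected in 9 lists, with 69 genes listed, 59 measured and 41 tested. On KO2 against KO1, 7 of the 41 were at least 1.5-fold higher, 17.1%, against 14.8% of all tested genes, and 1 was lower, against 4.45% of all. On WT-HF against WT-LF, 6 of the 41 were higher, 14.6%, against 7.72% of all, and 0 were lower, against 3.82% of all. Their medians were 0.36 and 0.20, beside 0.14 and 0.05 for all tested genes. For KO against WT-LF, limma passed 0 of the 41, with 0 at an unadjusted p under 0.05. Higher in both of the first 2 comparisons were Nqo2, Gnao1, Adcy7, Tgfb1 and Lep, and over all tested genes this held for 6.02%.

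In the synthesis of melatonin, Aanat, which acetylates serotonin, was low at 4.54 on KO2 and 4.55 on KO1, against 4.41 on WT-HF and 4.51 on WT-LF. Tph1, the tryptophan hydroxylase of the pineal gland and gut, lay between 4.17 and 4.28, and the decarboxylase gene Ddc between 4.01 and 4.17. Tph2, the neuronal tryptophan hydroxylase, was the member that passed the filter, with 6.09 on KO2 and 5.66 on KO1, against 6.18 on WT-HF and 5.31 on WT-LF. Asmt, which makes melatonin from acetylserotonin, had no probe set with its symbol alone.

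Among proteins that break down or bind melatonin, Nqo2, the quinone reductase also known as the MT3 binding site, followed the high and low arrays of Gpr50. It had 8.75 on KO2 and 7.49 on KO1, against 8.91 on WT-HF and 8.00 on WT-LF. Sult1a1, a sulfotransferase, ran the other way with 8.96 on KO2 and 9.68 on KO1, against 8.72 on WT-HF and 9.11 on WT-LF. Ido1, which opens the indole ring and is abundant in mouse epididymis, was at 4.23 on KO2 and 4.30 on KO1, against 3.95 on WT-HF and 6.82 on WT-LF. Cyp1a1 and Cyp1a2, which hydroxylate melatonin in liver, were below the filter, while Cyp1b1 lay between 8.05 and 8.62.

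Of 7 genes of G protein alpha subunits that melatonin receptors can couple to, 6 passed the filter, and Gnaz lay below it between 4.89 and 5.19. Gnai1 lay between 11.57 and 11.79, and Gnai2 had 11.57 on KO2 and 11.03 on KO1, against 11.57 on WT-HF and 11.15 on WT-LF. Gnao1, the Go subunit, had 8.56 on KO2 and 7.84 on KO1, against 8.50 on WT-HF and 7.82 on WT-LF, and it was the subunit past 1.5-fold in both comparisons. Among the adenylyl cyclases, Adcy5 and Adcy6 lay between 9.41 and 9.95. Adcy7, a cyclase of blood cells, had 7.97 on KO2 and 6.85 on KO1, against 8.26 on WT-HF and 7.30 on WT-LF. The arrestin gene Arrb1 had 9.92 and 9.34 on KO2 and KO1, against 10.07 on WT-HF and 9.56 on WT-LF, under 1.5-fold in both.

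Proteins described in cell experiments as partners of GPR50, or as part of the signalling it acts on, were measured as 4 genes. Rtn4, which encodes the neurite outgrowth inhibitor NOGO, had 9.77 on KO2 and 9.08 on KO1, against 9.76 on WT-HF and 9.36 on WT-LF. Tgfbr1, the type I receptor of TGF-beta, had 8.40 on KO2 and 7.83 on KO1, against 8.58 on WT-HF and 8.20 on WT-LF. Nr3c1, the glucocorticoid receptor, lay between 9.06 and 9.44, and Kat5, the acetyltransferase TIP60, between 7.30 and 7.56. Of the 4, Rtn4 on the KO pair was the one value past 1.5-fold, beside 14.8% of all tested genes that were higher on KO2.

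In the TGF-beta pathway, which GPR50 can act on through that receptor, 1 of 11 tested genes was at least 1.5-fold higher in both comparisons, near the 6.02% of all tested genes. This was the ligand gene Tgfb1, with 9.30 on KO2 and 8.52 on KO1, against 9.34 on WT-HF and 8.69 on WT-LF. The target genes did not share one pattern. Ccn2 had 8.81 on KO2 and 8.16 on KO1, against 8.40 on WT-HF and 8.71 on WT-LF, while Smad7 lay between 6.92 and 7.24.

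Of genes of energy balance linked to Gpr50 in mice, Lep, the gene of the satiety hormone leptin, was the one tested. It had 12.93 on KO2 and 11.97 on KO1, against 12.85 on WT-HF and 11.85 on WT-LF, and so shared the high and low arrays of Gpr50 at about 1 on the log2 scale. The leptin receptor gene Lepr lay between 4.75 and 4.98, and Trh, the gene of thyrotropin-releasing hormone, between 4.19 and 4.72. Of 8 other Gi-coupled receptors of fat, 6 were measured and 5 tested, and 0 of the 5 were 1.5-fold apart in either comparison. Over all tested genes, 7.72% were higher and 3.82% lower on WT-HF, and 14.8% were higher and 4.45% lower on KO2. With 5 genes, a count of 0 cannot be set apart from these shares. Among these receptors Hcar1, the lactate receptor gene, lay between 8.90 and 9.62 and Ffar2, a receptor for short-chain fatty acids, between 8.49 and 8.80.

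**Figure D4:**
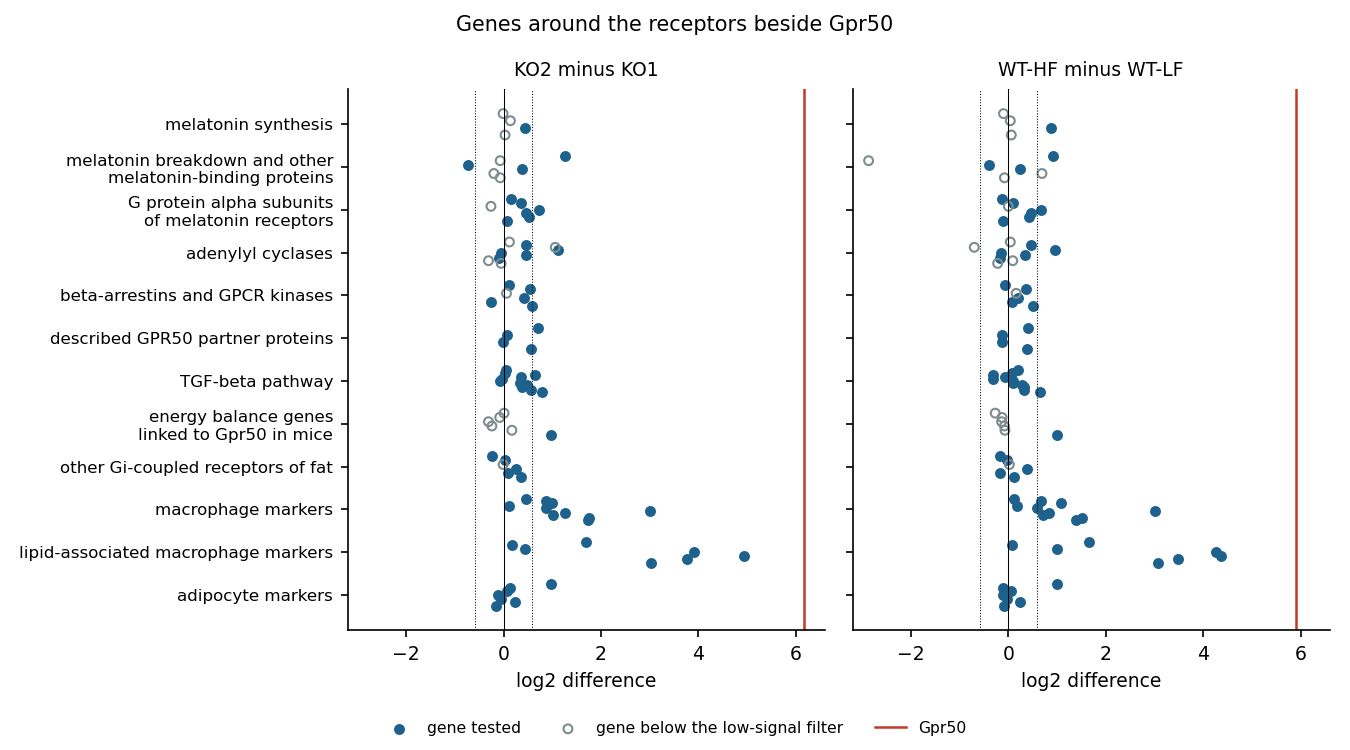
Log2 differences of the measured genes of 9 receptor pathway lists and 3 marker lists, left for KO2 minus KO1 and right for WT-HF minus WT-LF, with dotted lines at 1.5-fold and Gpr50 as a red line at 6.17 and 5.91. Filled points are tested genes and open points genes below the filter, and the points nearest to Gpr50 belong to the markers of lipid-associated macrophages.

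Markers of macrophages moved with Gpr50. Of 10 macrophage markers, 7 were at least 1.5-fold higher both on KO2 against KO1 and on WT-HF against WT-LF, against 6.02% of all tested genes, and 0 were lower in either. Their summed intensity was 14336 on KO2 and 6829 on KO1, against 15871 on WT-HF and 8553 on WT-LF. Of 7 tested markers of lipid-associated macrophages, 5 were higher in both, again against 6.02% of all, with median differences of 3.02 on KO2 over KO1 and 3.08 on WT-HF over WT-LF. The marker lists were chosen with earlier results of these data known, so these counts are a description. For the lipid-associated markers the summed intensity was 18987 on KO2 and 10650 on KO1, against 22192 on WT-HF and 11817 on WT-LF. That sum holds Lpl, the lipase that fat cells also make, which lay between 13.16 and 13.36 on the log2 scale. Their part in the Gpr50 result was not tested. In these whole-tissue samples, fewer cells of a type and less RNA per cell cannot be told apart.

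Markers of other cell types gave other counts. The 7 tested epididymis markers were lower on WT-HF than on WT-LF in 7 of 7 cases, while 4 were higher and 1 lower on KO2 than on KO1. Some passed the filter only through WT-LF, such as Spint4, with 4.43 on KO2, 3.25 on KO1, 3.19 on WT-HF and 11.35 on WT-LF. Lcn8 and Lcn9, low on all 4 arrays, did not pass. The count on the diet was thus partly fixed by the filter. Over all tested genes, 3.82% were lower on WT-HF, and 14.8% were higher and 4.45% lower on KO2, which is the background for the counts that follow as well. The summed intensity of the epididymis markers was 885 on KO2 and 233 on KO1, against 129 on WT-HF and 10503 on WT-LF. This sum was lowest on WT-HF, an array with high Gpr50, while in the KO pair it was higher on KO2, the other such array. Its relation to Gpr50 was not tested. Of the smooth muscle markers 3 of 4 were lower on KO2 and 2 of 4 on WT-HF, with a summed intensity of 4029 on KO2 and 7834 on KO1, against 4260 on WT-HF and 4105 on WT-LF. Of the mesothelial markers 3 of 5 were higher on KO2 and 0 of 5 on WT-HF, against 7.72% of all, and Krt19 was lower in both, at −1.47 and −0.84. The 3 tested sperm markers were lower on KO2 in 3 of 3 cases and 1.5-fold apart on the diet in 0 of 3, and their summed intensity was 230 on KO2 and 1284 on KO1, against 519 on WT-HF and 458 on WT-LF. Among progenitor and fibroblast markers 1 of 5 was higher in each comparison, Col1a1 on KO2 and Pdgfra on WT-HF. Endothelial markers were 1.5-fold apart in 0 of 4 cases in both comparisons. Among genes of the cells that Gpr50 is known from, Rax of tanycytes lay between 4.29 and 4.45, and the pituitary hormone genes Tshb, Cga and Pomc between 3.56 and 4.60, on all 4 arrays.

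The genes beside Gpr50 on the X chromosome were set against it in chromosomal order. The order was that of RefSeq in GRCm38.p6. Of the 20 genes nearest to it among those measured, 10 on each side, 11 passed the filter. On WT-HF against WT-LF their differences lay between −0.36 and 0.43, and 0 of 20 were 1.5-fold apart. Over all tested genes 7.72% were higher and 3.82% lower on WT-HF, and with 11 tested neighbours a count of 0 cannot be set apart from these shares. Between the KO arrays the differences of the 20 genes lay between −0.58 and 0.82, with 2 of 20 at least 1.5-fold higher on KO2. Both were among the 11 tested, a count near the 14.8% of all tested genes. Those were Mamld1, with 7.41 on KO2 and 6.61 on KO1, and Mtm1, the myotubularin gene, with 6.78 on KO2 and 5.96 on KO1. The nearest neighbours, Hmgb3 and the proton pump assembly gene Vma21, differed by −0.58 and 0.20 between the KO arrays and by −0.36 and 0.43 between the wild type arrays. The step of Gpr50 thus had no counterpart of like size among its neighbours.

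**Figure D5:**
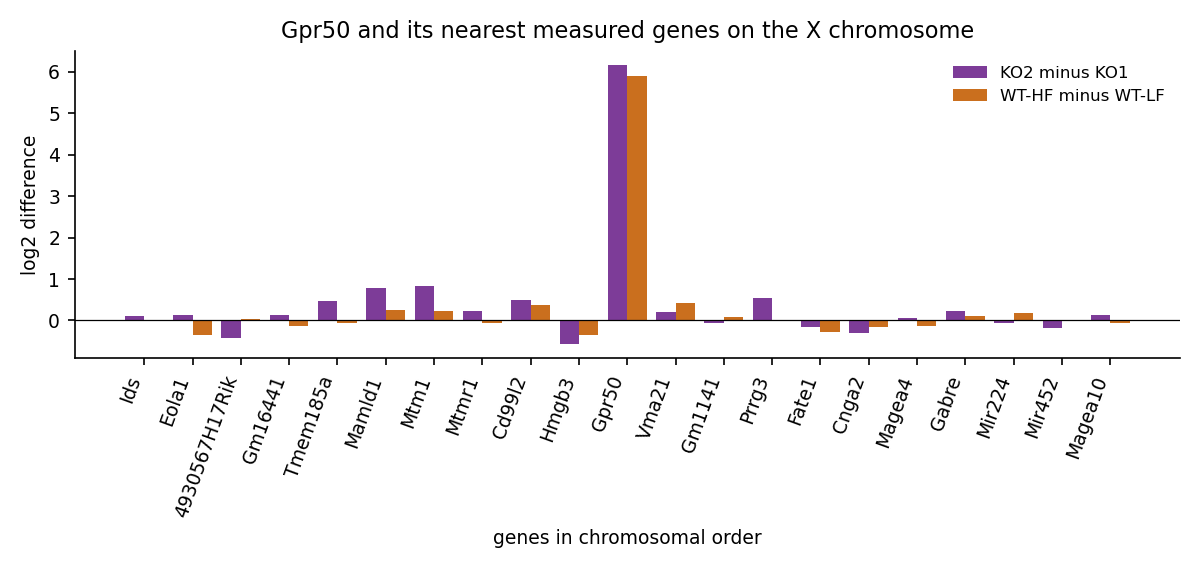
Log2 differences of Gpr50 and its 10 nearest measured genes on each side, in chromosomal order, for KO2 minus KO1 (purple) and WT-HF minus WT-LF (orange). Gpr50 stands at 6.17 and 5.91, and the neighbours lie between −0.58 and 0.82.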

How the data were processed

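RNA of epididymal fat was measured on 4 arrays, grouped by their titles. The deposited values are linear intensities, 1 for each probe set on each array, which, per the submitters' processing notes, the authors obtained with RMA under R 2.15.0. The build behind the probe sets is not given in the sources used here. Tests were planned on log2 values, and the deposited intensities were therefore converted to log2. The 21218 of 35556 probe sets with 1 gene symbol in the platform annotation were used, and 1881 had several symbols and 12457 none listed. The probe set with the highest mean stood for a gene, giving 18820 genes, of which 11292 at or above the 40th percentile of means (5.45) were tested.

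KO was compared with wild type on the low-fat diet in limma 3.58.1 (R 4.3.3), with 3 group means, eBayes without trend, two-sided tests and Benjamini-Hochberg adjustment at 0.05. The fit had 1 residual degree of freedom beside 4.62 prior ones, and WT-LF was assumed to vary like the KO pair, so a p-value reflects only the spread between arrays, which may be technical. The steps were tested on simulated data. Other differences have 1 array a side and were described by size, at 1.5-fold. The members and lists were chosen with earlier results of these data known. Named genes were the 3 receptors, list members, the 10 nearest measured genes on each side of Gpr50, the genes next to it by rank, and the 8 with the nearest range-scaled profile, without predicted, small RNA and olfactory or vomeronasal receptor genes. Genes named beyond these (Cd1d1, Pcp4, Ptgs2, Trdn, Il7r) were chosen after their values were seen. Alternatives covered array scaling, filter, probe set rule, trend and each KO array left out. The number of arrays limits precision. Figures used matplotlib 3.10.9.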

Additional observations from a re-analysis of the deposited data

How the results depend on the processing

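Gpr50 kept its direction on the diet, from 5.84 to 5.93, and in the KO pair, from 6.17 to 6.19, when the arrays were centred or quantile normalized; the KO pair was rescaled after seeing the data. Its difference between KO and WT-LF stayed between 2.58 and 2.64 with an adjusted p = 1 in limma under the 6 alternatives with a test, but ranged from −0.44 without KO2 to 5.73 without KO1, values that have no test. Quantile normalization moved the diet difference of Mtnr1a to −0.06, its KO pair difference to −0.01 and the KO difference of Mtnr1b to −0.14, and turned the KO pair difference of Mtnr1b to 0.02; the cause was not tested. The count of genes past the threshold, 5, was 0 with no filter (282 at an unadjusted p under 0.05 of 18820 tested), 3 with the mean of all probe sets, 1 with centred arrays and 3 after quantile normalization. Of 1303 genes at least 1.5-fold apart on the diet, 431 were at least 2-fold apart. Quantile normalization left 4 of the 5 pathway genes higher in both comparisons, without Tgfb1. It split the genes apart between the KO arrays into 1310 higher and 687 lower, against 1674 and 503 as deposited. Of the 41 tested pathway genes, 7 were higher on KO2 than on KO1 as deposited, 10 with centred arrays and 5 after quantile normalization. With centred arrays, 1800 of all 11292 tested genes were higher on KO2. No paired analysis was possible because the wild type arrays carry no replicate number. Signal in the range of silent genes limits what can be said of Mtnr1a, Mtnr1b and the low Gpr50 values.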
